A study of Mus musculus with 4 samples.

Results

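Meiotic recombination starts with DNA breaks that the cell makes in its own chromosomes, and 8 genes of this step were followed across 2 mouse germ cell lines: Prdm9 and Zcwpw1, which act at break sites, Spo11, Mei1, Mei4 and Rec114 of the break machinery, and Hormad1 and Hormad2 of the chromosome axis. They were chosen by name, and every non-control probe carrying one of these names was taken. This gave 16 probes of the 56605 on the array, for 8 of 24813 genes named through the reference table. Spo11 and Zcwpw1 had 1 probe each, Mei1, Mei4, Rec114 and Hormad2 had 2 each, and Prdm9 and Hormad1 had 3 each.

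The study measured total RNA of GC-2 (2 arrays) and GC-1 (2 arrays) on one-colour Agilent arrays. GC-2, in the series title GC-2(spd)ts, was made from mouse spermatocytes by means of SV40 large T antigen together with a p53 that is temperature-sensitive, and GC-1, in the series title GC-1(spg), from type B spermatogonia with large T antigen. No treatment is labelled, and both were grown in the same serum-supplemented high-glucose medium and harvested near confluence. Each group is 1 immortalised line, and the labels do not say whether its arrays came from separate cultures, so that the p-values describe the spread of these 4 samples alone, and this spread may be technical.

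In spermatocytes, PRDM9 binds DNA through a zinc finger array and methylates nearby histones, which marks where breaks will form, and ZCWPW1 reads these marks. SPO11 makes the break with a topoisomerase-like reaction, on chromosome axes where REC114, MEI4 and their partner IHO1 gather, while MEI1 is also required. HORMAD1 recruits this machinery to unsynapsed axes, and HORMAD2 takes part in the surveillance of unsynapsed chromosomes and unrepaired breaks.

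The levels rest on single 60-base probes, and the sequences below are those on which the results turn, with positions on mm9 as the scanner files give them, each written 5′ to 3′. Capitals mark AATAAA, the letters of the polyadenylation hexamer, or, in 1 Prdm9 probe, a run shared with a probe of another gene. AATAAA was in 3 member probes, and AATAAA or ATTAAA was in 13.4% of all probes. A match describes the letters, and its use as a signal was not tested.
Prdm9 A_55_P2741174, chr17:15680937-15680996 (-): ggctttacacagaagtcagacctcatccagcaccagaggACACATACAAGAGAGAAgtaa
Prdm9 A_66_P111317, chr17:15692120-15692179 (-): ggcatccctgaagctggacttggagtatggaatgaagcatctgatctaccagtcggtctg
Prdm9 A_55_P2930759, chr17:15700757-15700816 (-): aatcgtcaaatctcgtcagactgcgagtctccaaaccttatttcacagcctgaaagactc
Zcwpw1 A_52_P154026, chr5:138253240-138253299 (+): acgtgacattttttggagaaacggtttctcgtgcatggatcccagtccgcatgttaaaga
Spo11 A_55_P2502857, chr2:172818958-172819017 (+): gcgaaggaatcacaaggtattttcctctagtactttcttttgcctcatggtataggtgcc
Mei4 A_55_P2738437, chr9:81919806-81919865 (+): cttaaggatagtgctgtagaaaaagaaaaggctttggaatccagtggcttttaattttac
Mei4 A_52_P183300, chr9:82099418-82099477 (+): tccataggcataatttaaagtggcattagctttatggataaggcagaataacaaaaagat
Rec114 A_52_P338266, chr9:58500683-58500742 (-): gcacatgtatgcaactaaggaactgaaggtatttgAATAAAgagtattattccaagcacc
Rec114 A_51_P125679, chr9:58508155-58513675 (-): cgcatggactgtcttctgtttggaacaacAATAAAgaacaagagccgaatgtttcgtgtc
Hormad2 A_55_P2055142, chr11:4246466-4246525 (-): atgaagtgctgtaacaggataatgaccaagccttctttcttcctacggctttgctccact
Hormad2 A_51_P248687, chr11:4246163-4246222 (-): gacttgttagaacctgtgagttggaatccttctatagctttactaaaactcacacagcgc
The first Prdm9 probe lay nearest the 3′ end of the gene and shared 17 bases with a probe of Gm14296. No other member probe had a run of 17 bases or more in common with a probe of another gene, while 7.58% of all probes did. Of the 16 probes, 3 were placed over more than 60 bases of the genome, among them the second Rec114 probe, which spanned 5521 bases. The share of G and C in the 16 probes ran from 31.7% to 51.7%, and the median over all probes was 41.7%. The probe chromosome matched the chromosome of the gene in the reference table for all 8 genes, and exon positions were not used here.

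Of the 8 genes, 7 had a probe well above background on both arrays of GC-1, and 2 of them, Prdm9 and Zcwpw1, also on both GC-2 arrays. By probe, 3 of 16 were well above background on both GC-2 arrays, 3 on GC-2 replicate 1 alone and 10 on neither. On the GC-1 arrays 10 were well above it on both and 6 on neither, and these 6 were above it on none of the 4 arrays. Over all probes of the array the share was 56.6% for both GC-2 arrays and 61.8% for both GC-1 arrays, and 29.9% were above background on none. In bulk RNA, fewer cells expressing a gene and less RNA per cell cannot be told apart.

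**Figure D1:**
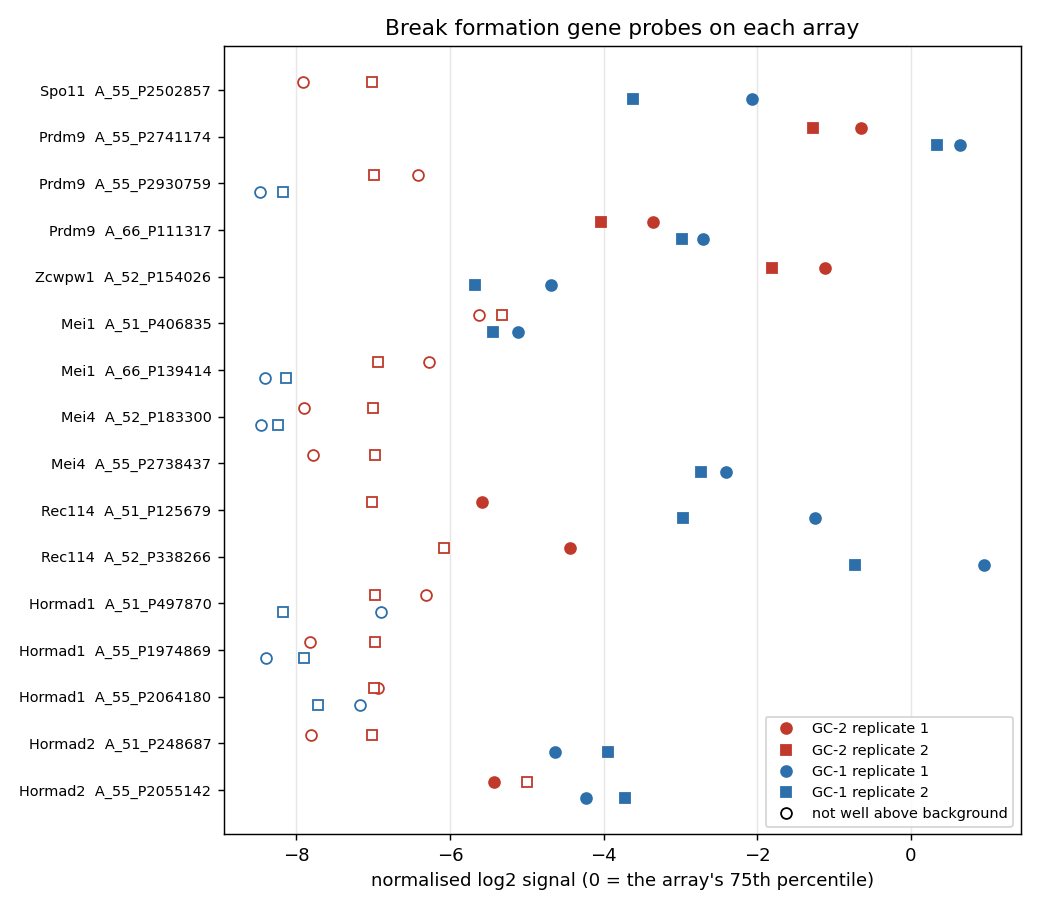
Normalised log2 signal of the 16 member probes on each array (x axis, 0 is the array's 75th percentile), 1 row per probe, GC-2 arrays in red above GC-1 arrays in blue, open symbols for spots not well above background. Filled symbols lie in both lines for 2 Prdm9 probes and Zcwpw1, and the 3 Hormad1 probes have open symbols throughout.

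Values are log2 of the processed signal minus the array's 75th percentile, so that 0 is that percentile, and differences are GC-2 minus GC-1. The 75th percentile was a signal of 416 and 199.9 for GC-2 and of 666 and 693 for GC-1, and the lowest normalised log2 value well above background was -5.58 and -4.69 in GC-2 and -6.19 and -5.92 in GC-1. The limit of detection was therefore higher in GC-2, most of all on replicate 2, and the number of arrays limits the precision. All arrays were on 1 slide with each line in a row of its own, so that slide position and line cannot be told apart. Of 8 germ cell marker genes, Dazl, Mael, Tex101, Piwil1, Tdrd1 and Kit were above background on no array, and Zbtb16 and Ddx4, both dim, were tested and not called. The processed signals of these last 2 genes summed to 35.2 and 11.7 in GC-2 and 39.2 and 43.6 in GC-1. Of 9 somatic testis markers with a probe, 7 were tested, 3 were higher in GC-2 and 2 lower (18.3% and 25.7% of all genes tested), and their signals summed to 12118 and 7886 in GC-2 and 96664 and 81056 in GC-1. Wt1 carried 90669 and 74633 of the GC-1 sums, and without it the sums were 11539 and 7543 in GC-2 and 5995 and 6423 in GC-1. The called ones were Cyp17a1, Star and Acta2, at 3.40, 2.75 and 1.80 log2, and Wt1, at -6.29 log2, and Fshr. Fshr passed the test but is given no fold, since it was not well above background in GC-2 and its GC-1 level lay under the mean of the 2 GC-2 limits. That level, -5.51 on both GC-1 arrays, was above the limit of GC-2 replicate 1 and under that of GC-2 replicate 2. The Sertoli cell markers Wt1 and Sox9 and the Leydig cell markers Cyp17a1 and Star were well above background on all 4 arrays, whereas Amh and Hsd3b1, of Sertoli and Leydig cells, were on none. The role of these markers in the results below was not tested.

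The test took in the 36692 probes flagged well above background on the full pair of arrays of GC-2, of GC-1 or of both, and the lines were compared with limma at a Benjamini-Hochberg adjusted p under 0.05. Of the 16 member probes 10 were tested, and 7 of these passed the filter only through GC-1, so that their count in 1 direction is a description and no support. Of the 10, 7 probes were lower in GC-2, where 21.6% of all tested probes were, and 1 was higher, where 24.1% were, and 45.7% of all tested probes passed in either direction. With no filter, all 16 probes entered, and 6 were lower (10.4% of all probes) and 3 higher (14.7%). By gene, represented by its brightest tested probe, 5 of 7 were lower and 1 was higher, against 25.7% and 18.3% of all 17437 genes tested. The median log2 difference of the 7 genes was -1.45, the value of Prdm9, also with Rec114, Mei4, Spo11 and Hormad2 at the bounds given below, and that of all genes tested was -0.13. Of the 7 genes all but Prdm9 and Zcwpw1 entered only through GC-1, so that the gene counts and this median are likewise a description and no support. Scaling set the split over all genes: 3192 were higher in GC-2 and 4490 lower here, 2273 and 5848 with arrays scaled to their medians, and 644 and 15158 with arrays scaled to the E1A spike-in probes.

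Of the break site genes, Prdm9 was lower in GC-2, and Zcwpw1 was the one member that was higher there. Prdm9, read by the probe nearest its 3′ end, stood at -0.65 and -1.27 in GC-2 and at 0.64 and 0.34 in GC-1. Both GC-2 arrays lay below both GC-1 arrays, as for 36.3% of all tested probes, while the lines did not overlap in either direction for 76.9%. The difference was -1.45 ± 0.31 (SE, n = 2 arrays per line; limma, adjusted p = 0.0139). It missed the threshold without GC-2 replicate 2 (-1.14, adjusted p = 0.0561), without GC-1 replicate 1 (-1.30, adjusted p = 0.0827) and without GC-1 replicate 2 (-1.60, adjusted p = 0.0511), by limma in each case.

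The next Prdm9 probe, 11123 bases further 5′, was also well above background on all 4 arrays. It stood at -3.36 and -4.03 in GC-2 and at -2.71 and -2.98 in GC-1, so that the lines again did not overlap. Its difference of -0.85 ± 0.31 (SE, n = 2 arrays per line) did not pass the threshold (limma, adjusted p = 0.0746), and it had the opposite sign, 0.28, under normexp background correction. It passed with arrays scaled to their medians (-1.16; limma, adjusted p = 0.0412), scaled to the spike-in probes (-2.92) and without GC-2 replicate 1 (-1.18; limma, adjusted p = 0.0442). The third probe, a further 8577 bases 5′ and designed on another transcript, was not well above background on any array, with processed signals of 4.88 and 1.58 in GC-2 and 1.88 and 2.39 in GC-1. In the authors' deposited table, which holds 1 log2 value per gene, Prdm9 stood at -1.70 and -2.51 in GC-2 and at -0.76 and -1.05 in GC-1, and did not pass the threshold (-1.20; limma, adjusted p = 0.0572).

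Zcwpw1, the reader of the marks that PRDM9 writes, stood at -1.12 and -1.80 in GC-2 and at -4.68 and -5.68 in GC-1. Both GC-2 arrays were above both GC-1 arrays, and all 4 spots were well above background. It rose by 3.72 log2 in GC-2, with an SE of 0.43 (n = 2 arrays per line; limma, adjusted p = 0.00203). It remained past the threshold under every alternative run, at 1.65 when arrays were scaled to the E1A spike-in probes and 2.16 under normexp. The GC-1 signals of 25.9 and 13.5 lay below the brightest probe for a non-mouse ERCC control RNA on the same arrays, at 74.5 and 65.0, whereas the GC-2 signals of 191 and 57.3 lay above the brightest such probe, at 44.8 and 32.4.

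The break machinery divided into 3 genes that were well above background in GC-1 and at or near it in GC-2, and 1 dim gene whose difference was not detectable at these signals. Spo11, the catalytic subunit, had processed signals of 1.72 and 1.54 in GC-2, which were surrogate values for spots not above background, and 159 and 56.4 in GC-1. In GC-1 it was at least 4.91-fold higher (limma, adjusted p = 0.00277 on the measured values, not on this bound). Here and below, "at least" sets the mean of the brighter line against the lowest signal well above background on each array of the dimmer line, or the probe's own value if higher. Left out 1 at a time, the arrays moved the Spo11 bound between 2.87-fold and 8.42-fold. Under normexp, which adds an offset of 50 to every signal, Spo11 stood at -0.28 (limma, adjusted p = 0.584).

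Mei4, which forms a complex with REC114, gave the same picture at its 5′ probe, with signals of 1.89 and 1.59 in GC-2, again surrogate values, and 125 and 104 in GC-1. In GC-1 it was at least 5.92-fold higher (limma, adjusted p = 0.000521 on the measured values). Its second probe, 179552 bases downstream and designed on another transcript, was at surrogate values on all 4 arrays, at 1.74 and 1.57 in GC-2 and 1.89 and 2.30 in GC-1. The Mei4 signal was thus read by 1 of its 2 probes. Under normexp that probe stood at -0.38 (limma, adjusted p = 0.410).

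Rec114, the partner of MEI4, was read by 2 probes 7412 bases apart. The 3′ probe stood at -4.44 and -6.07 in GC-2, where replicate 2 was not well above background, and at 0.96 and -0.73 in GC-1. With GC-2 replicate 2 raised to that array's limit it was, in GC-1, at least 25.7-fold higher, and the test on the measured values gave a limma adjusted p of 0.00357. The 5′ probe stood at -5.58 and -7.01 in GC-2, where replicate 2 was a surrogate value, and at -1.25 and -2.96 in GC-1. By the same measure it was, in GC-1, at least 8.20-fold higher (limma, adjusted p = 0.00671 on the measured values), so that both probes went the same way. Under normexp the 3′ probe stood at -2.39 and the 5′ probe at -0.68 (limma, adjusted p = 0.00137 and 0.20).

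Mei1, needed for break formation, was well above background on both GC-1 arrays at 1 of its 2 probes and on no GC-2 array. That probe stood at -5.63 and -5.32 in GC-2 and at -5.11 and -5.44 in GC-1, and the lines overlapped. The difference of -0.20 ± 0.26 (SE, n = 2 arrays per line; limma, adjusted p = 0.565) did not pass the threshold, and the values lay near the limit of detection in both lines. It had the opposite sign, 0.90, under normexp (limma, adjusted p = 0.0631), and passed the threshold at -2.27 when scaled to the spike-in probes, where nearly all genes were lower in GC-2. The log2 values of Mei1 in the authors' deposited table were -5.65 and -5.99 in GC-2 and -4.84 and -5.18 in GC-1.

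The axis genes were Hormad1, which was not well above background in either line, and Hormad2, which was dim and lower in GC-2. The 3 Hormad1 probes had processed signals from 1.57 to 5.22 in GC-2 and from 1.98 to 5.58 in GC-1. None was well above background, and none entered the main test. With no filter their differences, between values near background, ran from 0.48 to 0.89 and did not pass (limma, adjusted p from 0.196 to 0.297). Hormad2 was read by 2 probes 243 bases apart. The brighter stood at -5.43 and -4.99 in GC-2, where it was well above background on replicate 1 alone, and at -4.23 and -3.72 in GC-1. With GC-2 replicate 2 raised to that array's limit it was, in GC-1, at least 2.12-fold higher (limma, adjusted p = 0.0221 on the measured values). The call was lost without GC-2 replicate 1, without GC-1 replicate 2 and with no filter (limma, adjusted p = 0.0862, 0.0986 and 0.0529). The other probe had signals of 1.86 and 1.55 in GC-2 and 26.8 and 44.9 in GC-1. In GC-1 it was at least 1.80-fold higher (limma, adjusted p = 0.00258 on the measured values). Under normexp both Hormad2 probes had the opposite sign, at 0.50 and 0.53, and neither passed the threshold.

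**Figure D2:**
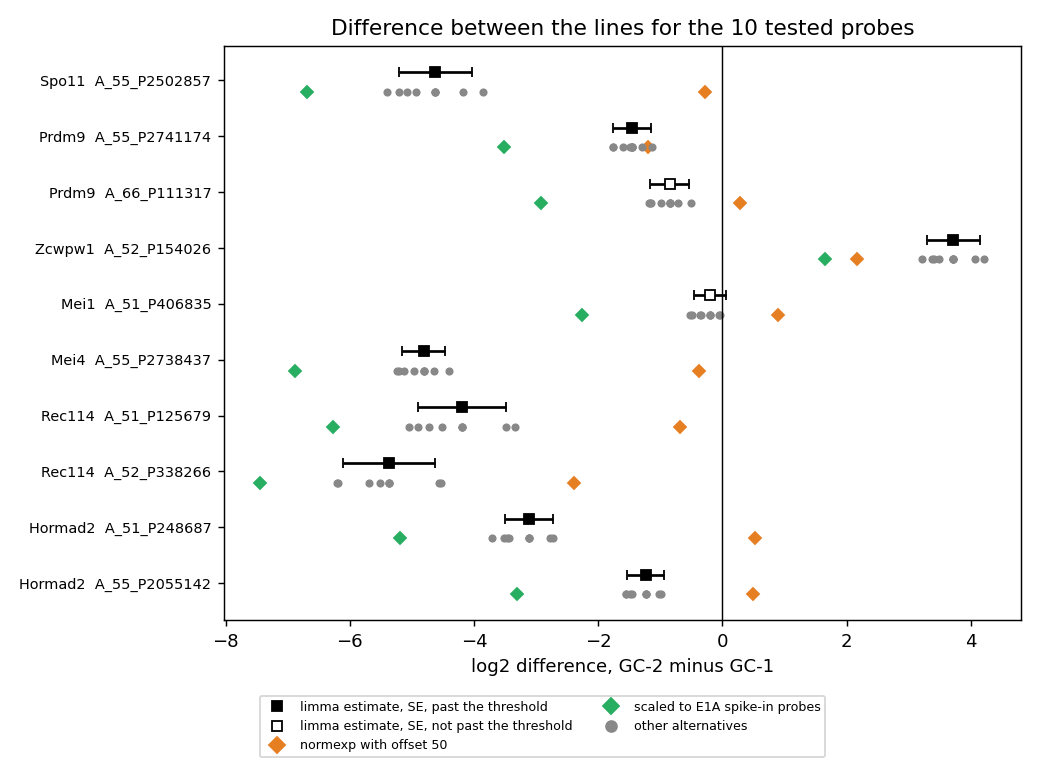
Log2 difference between the lines (GC-2 minus GC-1, x axis) for the 10 tested member probes. Black squares are limma estimates with their SE, filled where past the threshold, and smaller symbols below each are the same difference under the alternatives, all on measured values and not bounds. Scaling to spike-in probes moves all differences to lower values, and Zcwpw1 alone stays above 0 there, at 1.65, while normexp draws most of the others towards 0.

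Spo11 and Rec114 also differed between the 2 GC-1 arrays by more than most probes. Replicate 1 was higher than replicate 2 by 1.55 log2 for Spo11 and by 1.68 and 1.71 for the Rec114 probes. A gap at least as wide was found for 1.85% of tested probes at the Spo11 value, and for 1.40% and 1.27% at the Rec114 values. The median gap of all tested probes was 0.30. Prdm9 and Mei4, in contrast, had gaps of 0.27 to 0.33. Zcwpw1 had a gap of 1.00, matched by 7.21% of tested probes. Without GC-1 replicate 1 the bounds were at least 14.3-fold and 4.53-fold for the 3′ and 5′ Rec114 probes and 2.87-fold for Spo11. Without GC-1 replicate 2 they were at least 46.0-fold, 14.8-fold and 8.42-fold. These probes passed the filter only through GC-1 and were at or near background in GC-2, so that the bounds are a description and no support.

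The proteins that work with these 8 at break sites were read by 7 further genes, of which 6 were tested, 2 were higher in GC-2, 1 was lower and 3 did not pass, where 18.3% of all genes tested were higher and 25.7% lower. The median log2 difference of the 6 was 0.07. Iho1, on the array as Ccdc36 and the third partner of REC114 and MEI4, was well above background on GC-2 arrays alone, with signals of 30.3 and 10.1 in GC-2 and 6.77 and 2.95 in GC-1. In GC-2 it was at least 4.03-fold higher (limma, adjusted p = 0.00431 on the measured values), against the direction of Rec114 and Mei4. Its probe passed the filter only through GC-2, and its GC-2 signals lay below the brightest ERCC probe on the same arrays, at 44.8 and 32.4. Cxxc1, which encodes a PRDM9-binding protein of a histone methyltransferase complex, rose by 1.28 log2, with an SE of 0.24 (n = 2 arrays per line; limma, adjusted p = 0.00897), and stood at -0.79 when scaled to the spike-in probes. Hells, a chromatin remodeller that works with PRDM9, stood at 1.12 and 0.81 in GC-2 and at 1.92 and 1.66 in GC-1. It fell by 0.82 log2, with an SE of 0.26 (n = 2 arrays per line; limma, adjusted p = 0.0457), and missed the threshold whichever array was left out and under normexp, quantile scaling, no filter and the filter on the positive and significant flag (limma, adjusted p from 0.0586 to 0.178). Top6bl, the partner subunit of SPO11 and Gm960 on the array, was well above background on all 4 arrays at 1 probe and stood at -0.70 ± 0.44 (SE, n = 2 arrays per line; limma, adjusted p = 0.249). Morc2b and Ewsr1 stood at 0.25 ± 0.32 and -0.10 ± 0.23 (SE, n = 2 arrays per line) and did not pass. Ankrd31, another REC114 partner, was above background on no array.

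The enzymes that sense and process breaks also serve dividing cells, and all 10 of these genes were well above background on both arrays of both lines. One was higher in GC-2, 1 was lower and 8 did not pass the threshold, with a median log2 difference of -0.25. Of all genes tested 18.3% were higher and 25.7% lower. Atm, the kinase that responds to breaks, rose by 1.09 log2, with an SE of 0.25 (n = 2 arrays per line; limma, adjusted p = 0.0177) and stood at -0.98, past the threshold the other way, when scaled to the spike-in probes (limma, adjusted p = 0.0262). It missed the threshold without GC-2 replicate 1, GC-2 replicate 2 or GC-1 replicate 1 (limma, adjusted p = 0.0674, 0.0563 and 0.0802), and with arrays scaled to their medians (limma, adjusted p = 0.0594). Mre11, the nuclease that opens break ends, stood at 2.29 and 2.19 in GC-2 and at 3.85 and 3.61 in GC-1, and fell by 1.48 log2, with an SE of 0.24 (n = 2 arrays per line; limma, adjusted p = 0.00564). Its complex partners Rad50 and Nbn stood at -0.07 ± 0.27 and 0.53 ± 0.27 (SE, n = 2 arrays per line) and did not pass. The other 6 that did not pass were Mdc1 (-0.76), Exo1 (-0.65), H2ax (-0.49), Topbp1 (-0.43), Rbbp8 (0.49) and Brca1 (0.64), with SEs from 0.23 to 0.31 log2 (n = 2 arrays per line).

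Of 7 axis partners 3 were tested and 1 was called, with a median log2 difference of -0.04. Stag3, a meiotic cohesin subunit, was read by 1 of its 2 probes, with signals of 2.01 and 1.57 in GC-2 and 130 and 107 in GC-1. In GC-1 that probe was at least 6.12-fold higher (limma, adjusted p = 0.000433 on the measured values). That probe passed the filter only through GC-1 and was not well above background in GC-2, so that its call is a description and no support. Under normexp it stood at -0.40 (limma, adjusted p = 0.385). The other Stag3 probe was above background on no array. Rec8, the meiotic kleisin, and Trip13, the ATPase that removes HORMADs from axes, stood at 0.25 ± 0.30 and -0.04 ± 0.24 (SE, n = 2 arrays per line), short of the threshold. Sycp2, Rad21l and Smc1b were above background on no array, and Sycp3 on GC-2 replicate 1 alone. Among 7 regulators of meiotic transcription 5 were tested and none passed, with differences from -0.33 for Sohlh1 to 0.67 for Meiosin, and with Mybl1 at 0.02, Taf7l at 0.04 and Sohlh2 at 0.50 (limma, adjusted p from 0.0860 to 0.984). The share of all tested genes past the threshold in either direction was 44.1%. Mybl1 stood at 0.98 and 0.61 in GC-2 and at 1.72 and -0.17 in GC-1. Its difference thus had a wide SE, 0.62 log2 (n = 2 arrays per line), and does not show equal levels.

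**Figure D3:**
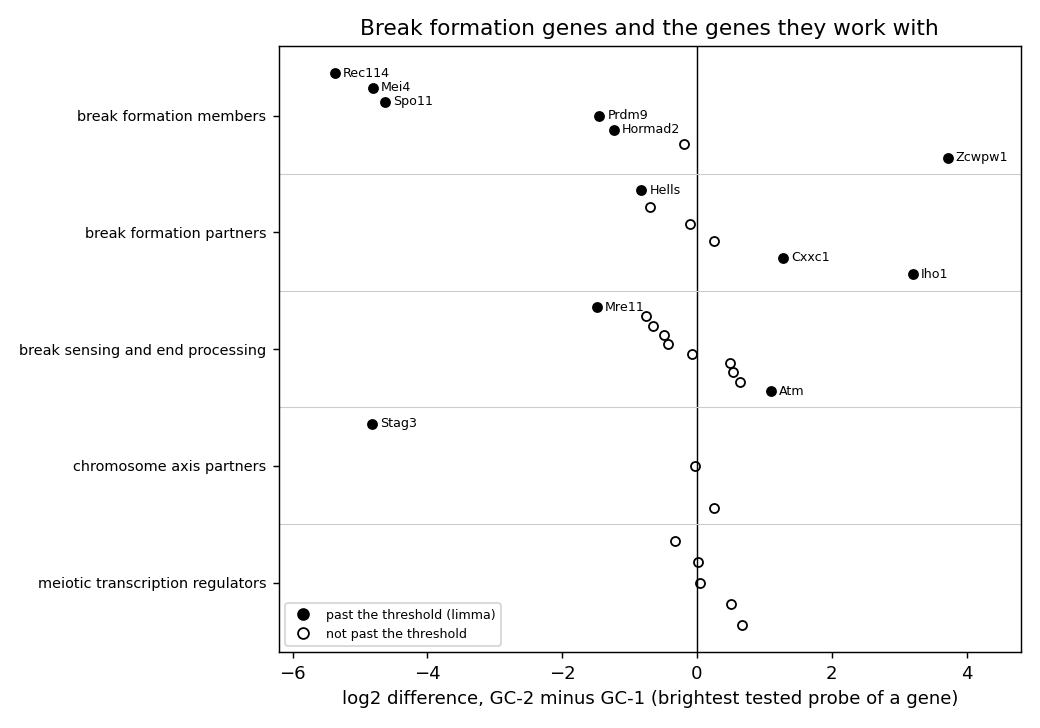
Log2 difference between the lines (GC-2 minus GC-1, x axis) for the 7 tested member genes and the tested genes of 4 pathway lists, 1 point per gene at its brightest tested probe, filled and named where past the threshold, on measured values and not bounds. Rec114, Mei4, Spo11 and Stag3 lie below -4, Zcwpw1 and Iho1 above 3, and the other points between -1.5 and 1.3.

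By the root mean square difference of centred values over the 4 arrays, the genes most like Prdm9 among 14973 were Ino80 and 9130008F23Rik, at 0.036 and 0.043 log2. Those most like Zcwpw1 were Col8a1 and Tspan13, at 0.081 and 0.118 log2. With 4 arrays in 2 groups such profiles are common, and 379 genes lay within 0.2 log2 of Prdm9 and 11 within 0.2 of Zcwpw1.

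Reference promoter windows, from 250 bases before to 50 after a start, were at hand for 7 members and not for Spo11. They were searched on both strands for CACGTG, the E-box core, and for GCGGGA, part of the E2F site, which on the other strand reads TCCCGC. Of 32851 windows of this length 7.15% held CACGTG, 20.0% held GCGGGA or TCCCGC, and 1.99% held both. Both were in the windows of Hormad1, which was not well above background in either line, and of Rec114, which was lower in GC-2. These 2 are shown with the matches in capitals, from RefSeq on GRCm38.p6.
Hormad1 chr3:95559427-95559726 (+): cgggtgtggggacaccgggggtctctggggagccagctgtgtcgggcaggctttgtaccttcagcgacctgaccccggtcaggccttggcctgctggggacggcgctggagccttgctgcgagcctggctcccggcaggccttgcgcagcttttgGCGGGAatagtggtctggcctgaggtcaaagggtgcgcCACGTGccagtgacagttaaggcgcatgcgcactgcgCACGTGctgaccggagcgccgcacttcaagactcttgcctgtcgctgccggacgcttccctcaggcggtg
Rec114 chr9:58741510-58741809 (-): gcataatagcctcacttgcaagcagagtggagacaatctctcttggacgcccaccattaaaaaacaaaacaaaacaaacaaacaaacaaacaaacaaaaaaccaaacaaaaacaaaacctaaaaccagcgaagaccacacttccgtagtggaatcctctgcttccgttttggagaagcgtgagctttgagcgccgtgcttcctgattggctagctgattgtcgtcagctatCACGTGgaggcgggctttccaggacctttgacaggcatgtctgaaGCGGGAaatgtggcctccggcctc
Hormad1 had CACGTG at -57 and -20 and GCGGGA at -95 from the start, and 0.594% of all windows held CACGTG more than once. Rec114 had CACGTG at -19 and GCGGGA at 27. Prdm9 had GCGGGA in 1 window and TCCCGC in the other, and the windows of Zcwpw1, Mei1, Mei4 and Hormad2 held none of these letters. A match is a description of the sequence and not a site.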

How the data were processed

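RNA of GC-2 and GC-1 cells was read on 4 arrays. Per the file headers, the deposited scanner files were made with Agilent Feature Extraction 11.5.1.1 and give each spot a processed intensity, background-subtracted and multiplicatively detrended, with a surrogate for spots not above background, and flags (a score of 0 or 1) for spots well above background. The authors' deposited table holds 1 log2 value for each name. In 381 rows that carry a probe's name they equal the log2 processed intensity minus a constant per array, with genes not centred. The rule by which they joined several probes into 1 value is not given here.

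Spots of a probe were averaged as log2 without irregular spots (92 to 224 per array) or controls, and the array's 75th percentile over 56605 probes was subtracted. No spot was saturated. The test was limma 3.58.1 in R 4.3.3 (lmFit, eBayes), adjusted over 36692 probes and checked on simulated data. Genes were named through RefSeq's GRCm38 table (43738 of 56605 probes). All members were named with every probe, as were list genes past the threshold or well above background on all 4 arrays and, for members so measured, the 2 genes of nearest profile. List genes named without meeting this were chosen after their values were seen. Members and lists were chosen with earlier results of these data known. Alternatives were normexp (offset 50), quantile, median and spike-in scaling, 3 filters, a replicate block, probe means, the authors' table and each array left out. Replicates correlated at 0.990 in GC-2 and 0.989 in GC-1 over 30316 probes. All arrays lay on 1 slide. Bounds for probes undetected on 1 GC-2 array, bounds with an array left out and marker sums without Wt1 were chosen after seeing the data.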

Additional observations from a re-analysis of the deposited data

How the results depend on the processing

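The count of member probes lower in GC-2 was 7, and it rose to 8 with arrays scaled to their medians and to 9 when scaled to the E1A spike-in probes. It was 2 under normexp, whose offset of 50 exceeds most of the dim signals, and 1 with only probes well above background on all 4 arrays, a filter that leaves 3 member probes to test. Over all 36692 tested probes 7935 were lower in the main run, 10414 with median scaling, 29916 with spike-in scaling and 5037 under normexp. With the filter on all 4 arrays 6307 of 30316 probes were lower. The count of member probes higher in GC-2 was 1, and 3 with no filter, where 14.7% of all probes were. The 2 member probes added there, of Prdm9 and Mei1, were above background on no array. Of 7 member genes 6 were past the threshold, 7 when scaled to the E1A spike-in probes, 3 under normexp and 2 with the filter on all 4 arrays. The pathway lists had 6, 10, 3 and 5 tested genes. Of these pathway genes 6 were past the threshold, and 23 when scaled to the E1A spike-in probes. Of all 17437 genes tested 44.1% were past it, and with spike-in scaling 644 were higher and 15158 lower. The median of all genes was then -2.20, against -0.13 with 75th percentile scaling. Under normexp the sign turned for the Prdm9 probe A_66_P111317 (0.28), for Mei1 (0.90) and for the Hormad2 probes A_51_P248687 and A_55_P2055142 (0.53 and 0.50), and the cause was not tested. Of the recomputed differences of single probes and genes, 109 had the same direction and side of the threshold, 10 lost the call, 5 gained it and 4 turned sign. Over all genes, 3192 were higher and 4490 lower, 4166 and 4077 with the mean of a gene's probes, 4541 and 4468 in the authors' deposited table, 3273 and 3457 under normexp, and 1941 to 2544 and 2704 to 3432 with 1 array left out. With 1 array left out, 1 probe was higher, 5 to 7 were lower, 4 to 5 member genes and 4 to 5 pathway genes passed. The replicate numbers are shared by the lines but not stated to mark a shared batch, and arrays of the same number deviated together with a correlation of 0.15 across 30316 probes. With the replicate block 8 member probes were lower, since the Prdm9 probe A_66_P111317 passed (limma, adjusted p = 0.0468), and 1 was higher. With this block 6 member genes and 6 pathway genes passed, and over all 36692 tested probes 8200 were lower and 9132 higher. Signal over background limits Mei1, Hormad2 and the GC-2 levels of Spo11, Mei4 and Rec114, which are near or below the limit of detection.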

Other observations

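The brightest of 96 ERCC probes, made for non-mouse control RNAs, was taken on each array as a limit, a choice made once values were known. Against it Prdm9 (1 probe) and Zcwpw1 were brighter on both GC-2 arrays. On both GC-1 arrays this held for 5 probes, of Prdm9, Mei4 and Rec114 (2, 1 and 2 probes), and for Spo11 on GC-1 replicate 1 alone, where its signal was 159 against a limit of 74.5. On GC-1 replicate 2 Spo11 had 56.4 and the limit was 65.0. The Mei1 and Hormad2 probes lay below this limit on all 4 arrays.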
